A study of Drosophila melanogaster with 2 samples.

Results

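Autosomal distal intergenic peaks are the places where CG10366 was found outside genes and away from gene starts on chromosomes 2, 3 and 4 of the Drosophila melanogaster embryo. They were taken from the series-wide list of peaks that passed the authors' threshold on the irreproducible discovery rate (IDR). This rate measures how poorly a peak's rank repeats between sets of reads. Which sets were compared for this list is not known here, so passing need not mean that a peak repeated between the libraries. A peak belonged if its summit lay on an autosome, outside every annotated gene, with no transcript start within 500 bp. This gave 657 peaks of the 5153 in the list. The rule used the passing list and the position of the summit, and it used no signal value, base composition or sequence.

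The embryos were whole, 0 to 24 h old, and of a transgenic strain that expresses CG10366 fused to eGFP. Chromatin was sonicated to 200 to 800 bp and precipitated with an antibody against GFP. Both libraries, biological replicate 1 and biological replicate 2, carry the same fusion, so there is 1 group of 2 libraries and no comparison between treatments or genotypes. Whole embryos of this age range mix all tissues and stages, and binding in a few cells cannot be told apart from weaker binding in many. Read totals are not in the lists, so depth is unknown here, and what is compared is one class of site with another.

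Sequence between fly genes holds enhancers (which raise transcription of a gene at a distance), insulators (which separate neighbouring domains) and elements bound by Polycomb proteins, as well as sequence with no known role. Insulators of the fly are bound by zinc finger proteins such as CTCF and Su(Hw), and GAGA factor and Pho bind sites in many regulatory and Polycomb elements. CG10366 is known by its annotation symbol, and its role is not given in the labels.

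The summit sequences below show what the distal intergenic sites look like: 6 of the 8 strongest, and the strongest carriers on 2L, 3L and 3R of each sequence that differed from failing candidates in the tests further down. They were read from the RefSeq copy of the dm6 assembly, plus strand, 5′ to 3′, centred on the summit, and each is named by its flanking genes. Capitals mark matches, on either strand, to the CTCF core, the GAGA element, the Su(Hw) core, the Pho site, the A run or the 8-mers ACAGGGTG, AGATGGCG, GATGGCGC and GCGCCACC. A window without capitals holds none of these letters, and nothing more follows from that.
CR45641/CR45643, chr3R:16222392-16222592: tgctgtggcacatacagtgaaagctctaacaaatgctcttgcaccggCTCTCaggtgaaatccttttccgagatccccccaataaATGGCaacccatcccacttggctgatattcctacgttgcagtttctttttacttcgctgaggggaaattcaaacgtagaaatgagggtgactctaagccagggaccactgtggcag
C15/sp3, chr3R:21520306-21520406: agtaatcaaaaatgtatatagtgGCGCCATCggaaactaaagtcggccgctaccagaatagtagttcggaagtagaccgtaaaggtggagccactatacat
COX7AL2/CG31668, chr2L:2202355-2202455: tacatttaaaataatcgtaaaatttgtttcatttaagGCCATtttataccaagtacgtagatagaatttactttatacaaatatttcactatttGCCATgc
CR44363/CG7560, chr3L:11418274-11418474: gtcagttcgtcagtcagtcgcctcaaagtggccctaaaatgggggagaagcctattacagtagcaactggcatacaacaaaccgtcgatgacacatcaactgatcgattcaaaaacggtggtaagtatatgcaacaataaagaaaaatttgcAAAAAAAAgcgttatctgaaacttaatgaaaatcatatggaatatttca
CR44603/CR45695, chr2L:1632776-1632876: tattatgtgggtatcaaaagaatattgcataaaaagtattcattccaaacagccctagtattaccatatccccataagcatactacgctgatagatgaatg
tRNA:Ser-GCT-2-2/foxo, chr3R:14053531-14053631: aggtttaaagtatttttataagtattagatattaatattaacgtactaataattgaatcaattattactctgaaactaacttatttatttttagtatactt
jp/CR44149, chr2L:9567392-9567592: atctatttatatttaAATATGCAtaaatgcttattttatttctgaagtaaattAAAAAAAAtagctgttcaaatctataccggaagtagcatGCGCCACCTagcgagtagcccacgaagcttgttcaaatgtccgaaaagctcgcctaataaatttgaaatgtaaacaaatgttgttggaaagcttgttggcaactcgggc
CR43670/CG31808, chr2L:16703925-16704025: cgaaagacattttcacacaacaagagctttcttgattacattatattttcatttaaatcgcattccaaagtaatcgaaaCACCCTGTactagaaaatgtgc
soti/cv-c, chr3R:14391388-14391488: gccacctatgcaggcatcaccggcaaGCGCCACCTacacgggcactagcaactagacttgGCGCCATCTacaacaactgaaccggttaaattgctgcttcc

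Base composition varies widely among these windows. In the 101 bp around the summit, GC content was 16.8% at the foxo site, 24.8% at COX7AL2/CG31668 and 46.5% at CR45641/CR45643. The soti/cv-c window, at 55.4%, held the CTCF core on both sides of its summit, and the jp window held the CTCF core at the summit itself.

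Signal is the authors' value per peak and ranks peaks within a list. Among the 657 peaks it ran from 2.22 to 2053 with a median of 127 and quartiles of 94.3 and 196. All 25 strongest peaks, with signals of 509 or more, overlapped a thresholded peak of each replicate. They ranked between 11th and 361st among all peaks of the list. In 23 of the 25 the value in replicate 1's list was the higher one. Each library's value comes from its own list, and whether the lists share a scale is not known. Over the 585 peaks with a candidate summit within 100 bp in both libraries, the medians were 82.4 in replicate 1 and 59.1 in replicate 2.

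The strongest distal intergenic peak (2R, 13035188 to 13035474, signal 2053) lay in the gap between Su(z)2, which encodes a Polycomb group protein, and CG13323. Its signal was 1223 in replicate 1 and 843 in replicate 2, and its summit was 11913 bp from the nearest start, that of CG13323. On the same arm, a peak between blw, which encodes the alpha subunit of ATP synthase, and the mitotic cyclin gene CycB had a signal of 1055, with 638 in replicate 1 and 409 in replicate 2. Both flanking pairs are convergent, so the 3′ ends of both genes face the peak. A further peak between CR44761 and Ppa, an F-box protein gene (2R, 22676894 to 22677249, signal 858), had a GC content of 63.4%, the highest of the 25 strongest. It was also 1 of the 2 among these with more signal in replicate 2 (466) than in replicate 1 (374), the other being jp.

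On 3R, the peak between the long non-coding RNA genes CR45641 and CR45643 (16222349 to 16222638, signal 1675) reached 1003 in replicate 1 and 669 in replicate 2. The nearest protein-coding start was that of tara, a nuclear protein gene, 3159 bp away. The peak between the homeobox gene C15 and sp3 (21520227 to 21520493, signal 1208) had 697 in replicate 1 and 528 in replicate 2. The peak upstream of foxo, a forkhead transcription factor of insulin signalling (14053457 to 14053713, signal 867), had 482 in replicate 1 and 405 in replicate 2. In each of these 3, both libraries were far above the members' median of 82.4 in replicate 1 and 59.1 in replicate 2. These medians are over the 585 peaks with a candidate summit within 100 bp in both libraries.

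On 2L and 3L, the 4 peaks that follow each had the higher value in replicate 1's list, as did most members with a candidate summit in both libraries. The peak between COX7AL2, a cytochrome c oxidase subunit 7A-like gene, and CG31668 had a signal of 1106, with 627 in replicate 1 and 482 in replicate 2. Upstream of CG7560 the signal was 1001, with 590 in replicate 1 and 411 in replicate 2. Next to RasGAP1, a Ras GTPase-activating protein gene, it was 666, with 396 in replicate 1 and 272 in replicate 2. Between slp1 and slp2, a pair of forkhead genes of segmentation, it was 632, with 365 in replicate 1 and 263 in replicate 2. The nearest protein-coding starts of the others among the 25 were those of chinmo, CG13898, CG7560, Sf3b3, DNAlig3, betaTub60D, CG4702, stck, CG43245, CG14762, jp and by.

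**Figure D1:**
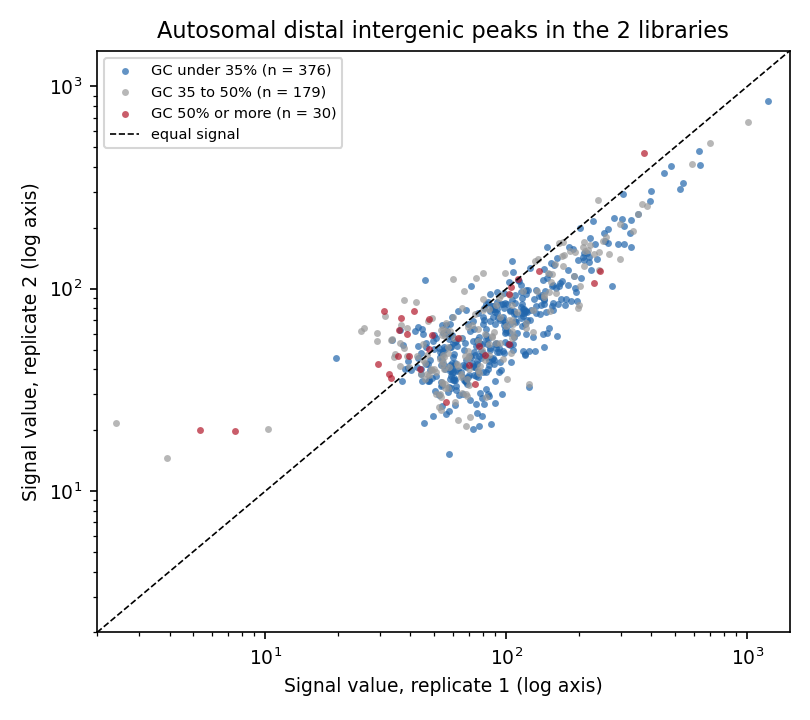
Signal of each autosomal distal intergenic peak in replicate 1 (x axis) and replicate 2 (y axis), both on log axes, for the 585 peaks with a candidate summit within 100 bp in each library; each point is 1 peak, coloured by GC content, and the dashed line marks equal signal. Most points lie below the line, and 103 lie above it. Each library's values come from its own list, and whether the lists share a scale is not known.

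Across those 585 peaks the signals of the libraries had a Spearman's rho of 0.714. This is a description over peaks that share both libraries and that were selected by the IDR threshold, which favours ranks that repeat. Replicate 2 had the higher signal at 103 of them (17.6%). The share differed with base composition: replicate 2 was higher at 16 of 30 peaks with a GC content of 50% or more and at 41 of 376 under 35%. The median log2 ratio of replicate 2 to replicate 1 was 0.10 in the first set, -0.58 in the second and -0.53 over all 585. No test was made of this difference, and the part of library preparation in it was not tested.

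Most of the peaks also overlapped a thresholded peak of at least 1 library on its own. The series-wide list was made from these same libraries, so the overlap is not an independent repeat. A thresholded peak of both replicates overlapped 343 of the 657 by at least 1 bp (52.2%, 95% Wilson interval 48.4 to 56.0%), while 216 (32.9%) met only replicate 1, 35 (5.33%) only replicate 2, and 63 (9.59%) had no match in either. Repeats followed signal: 162 of 164 peaks above the upper quartile of signal were found in both, 125 of 164 between the median and it, 40 of 164 in the class below and 16 of 165 under the lower quartile. The conservative list overlapped 559 of the 657 (85.1%). Intervals here and below cover counting error only, and peaks are not independent replicates, so each p-value treats neighbouring sites as separate.

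Distal intergenic candidates passed the IDR threshold less often than those in introns or at promoters. Of 6830 ranked autosomal candidates in distal intergenic sequence, 657 passed (9.62%, 8.94 to 10.3%), against 14.3% of all ranked autosomal candidates. Over the whole series, 148 ranked peaks reached the threshold but are missing from the thresholded list, and these are in neither count. In introns over 500 bp from a start 13.3% of 10832 passed (log2 odds ratio -0.53 ± 0.07 SE; Fisher's exact test, two-sided; adjusted p = 4.4e-13). At promoters, within 500 bp of a start, 29.1% of 6576 passed (log2 odds ratio -1.95 ± 0.07 SE; Fisher's exact test, two-sided; adjusted p = 2.45e-185). In exons over 500 bp from a start 2.28% of autosomal candidates passed (1.89 to 2.75%), a lower share that was not tested against the distal intergenic one. On the X chromosome, which is not among the members, 79 of 723 distal intergenic candidates passed (10.9%, 8.86 to 13.4%).

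Once past the threshold, the distal intergenic peaks were weaker than promoter peaks and found in both replicates less often, and no difference from distal intronic peaks passed. Signal was above the median of the whole list in 43.1% of them, in 45.0% of 1440 distal intronic peaks (log2 odds ratio -0.11 ± 0.14 SE, Fisher's exact test, adjusted p = 0.463) and in 56.6% of 1914 promoter peaks (log2 odds ratio -0.79 ± 0.13 SE, Fisher's exact test, adjusted p = 5.66e-09). Both replicates' lists held 53.8% of distal intronic peaks (log2 odds ratio -0.09 ± 0.14 SE, Fisher's exact test, adjusted p = 0.54) and 63.6% of promoter peaks (log2 odds ratio -0.68 ± 0.13 SE, Fisher's exact test, adjusted p = 7.15e-07). The 95% interval of the log2 odds ratio against introns was -0.38 to 0.16 for strength and -0.36 to 0.18 for replication, so small differences in either direction remain possible. With an IDR of 0.001 or less, the difference from promoters in the share found in both replicates no longer passed (76.2% against 80.4%, Fisher's exact test, adjusted p = 0.0824).

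The edges of the rule cut through a continuous range. The 15 members with a start 505 to 547 bp away had a median signal of 189 (27.6 to 316), and the 72 autosomal promoter peaks with a start 452 to 500 bp away, in genes or out, had one of 135 (2.54 to 710). The 35 members with a −log10 IDR from 2.00 to 2.09 had a median signal of 76.0, and the 25 distal intergenic candidates from 1.91 to just under 2.00 had one of 80.6.

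Distal intergenic peaks sat on AT-rich sequence. The 101 bp around the summit had a GC content of 34.2% ± 9.30 (SD, n = 657 peaks), against 44.8% ± 9.47 (SD, n = 6173) at failing distal intergenic candidates. GC content was under 35% at 402 of the 657 (61.2%) and at 1013 of the 6173 (16.4%; log2 odds ratio 3.0 ± 0.13 SE; Fisher's exact test, two-sided; adjusted p = 2.39e-127). Distal intronic peaks were under 35% in 64.7% of cases (log2 odds ratio -0.21, 95% interval -0.48 to 0.06, Fisher's exact test, adjusted p = 0.159). Mean GC content was 35.2% at passing autosomal promoter peaks and 34.5% over all passing peaks on the chromosome arms, without a test. Low GC content was thus shared across the passing list.

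**Figure D2:**
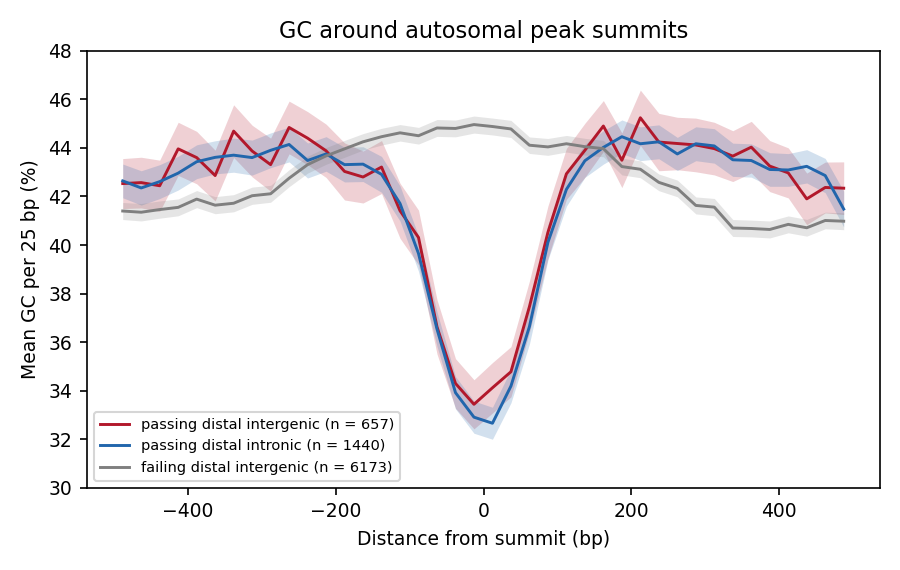
Mean GC content in 25 bp bins (y axis, %, starting at 30) by distance from the summit in bp (x axis) for passing and failing autosomal distal intergenic candidates and passing distal intronic ones; bands are 1.96 SE to either side. The passing intergenic curve falls to 33.4% just before the summit and stands at 43.9% about 300 bp away.

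The AT-rich stretch was narrow. Mean GC content was 33.4% (SE 0.516, n = 657) in the 25 bp centred 13 bp to the left of the summit and 41.4% in the bin 113 bp to the left. At 313 bp to the left it was 43.9%, and at 287 bp to the right 44.1%. Failing candidates had no dip: their mean was 45.0% at the summit and 42.0% at 313 bp to the left.

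The share of candidates that passed fell steadily with GC content. In distal intergenic sequence it was 36.8% of 285 candidates under 25% GC (31.5 to 42.6%), 22.4% of 639 at 30 to 35% and 2.55% of 1957 at 50% or more (1.94 to 3.35%). Introns ran from 47.2% to 3.22% and promoters from 69.1% to 10.6% over the same range, and in each of the 7 GC classes the distal intergenic share was the lowest of these 3. The class of sites nearest to a start, 501 to 1000 bp, passed more often than the rest: 15.4% of 738 (13.0 to 18.2%), against 9.58% of 2224 at 2001 to 5000 bp and 4.89% of 470 beyond 20000 bp (3.28 to 7.24%). Mean GC content of the passing peaks was 35.1% in the nearest class and 35.2% in the farthest. That of failing candidates was lowest in the nearest class and highest in the farthest, at 48.1% there against 44.8% over all failing candidates. Whether the fall in the passing share with distance holds at equal GC content was not tested. These shares are descriptions with counting intervals and were not tested against each other, and how far base composition affected recovery of fragments was not tested.

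**Figure D3:**
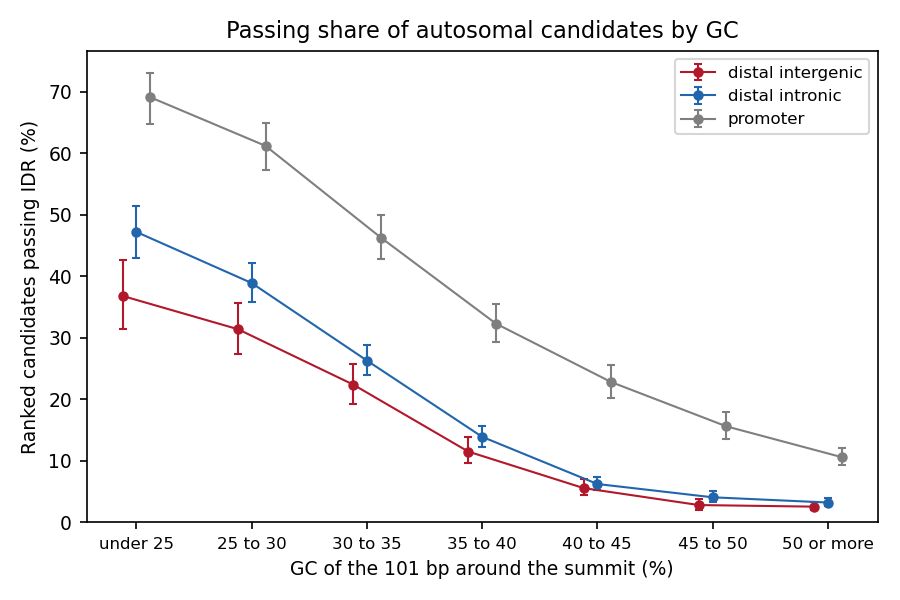
Share of ranked autosomal candidates that passed the IDR threshold (y axis, %) by GC content of the 101 bp around the summit (x axis), for distal intergenic, distal intronic and promoter candidates; bars are 95% Wilson intervals. The distal intergenic points fall from 36.8% to 2.55%, and the promoter points lie highest in each class.

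Among 20 known motifs searched within 100 bp of the summit on both strands, the CTCF core had the lowest adjusted p against failing candidates. The core is AG, then A or G, then G or T, then GGCGC. It lay near 26 of the 657 distal intergenic peaks (3.96%) and 48 of 6173 failing candidates (0.778%; log2 odds ratio 2.44 ± 0.41 SE, exact conditional test over GC classes of 5 percentage points, adjusted p = 4.01e-08). In 151714 windows of the same length tiled over autosomal distal intergenic sequence the share was 0.333%. Distal intronic peaks had it in 1.74% of cases (log2 odds ratio 1.16 ± 0.42 SE, exact test, adjusted p = 0.0886).

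The 26 peaks with a CTCF core spanned signals of 80.4 to 520 with a median of 166, and 11 of them lay above the upper quartile of the members' signal and 2 under the lower one. Their GC content averaged 43.3%, against 33.8% for the other members. The strongest lay upstream of CG14762 (2R, 8014306 to 8014507, signal 520), with 336 in replicate 1 and 193 in replicate 2. Next came the peak beside jp, which encodes junctophilin of membrane junctions (2L, 9567400 to 9567609, signal 518), with 240 in replicate 1 and 276 in replicate 2. The next lay 576 bp upstream of dpr20, an immunoglobulin superfamily gene (3L, 857746 to 857930, signal 380), with 217 in replicate 1 and 156 in replicate 2. All 3 were in both replicates' lists, and replicate 1 was the higher in 2 of them. Over the 26 peaks the core lay a median of 38.5 bp from the summit, against 37.5 bp at the 48 failing candidates with a core. It was within 50 bp in 17 of the 26 and in 34 of the 48, and no test was made of this placement.

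Of the 20 motifs 5 were called against failing candidates (25% of those tested), 3 higher and 2 lower. The Su(Hw) core, TGCATA and then 2 bases each C or T, lay near 7.61% of peaks and 4.23% of failing candidates (log2 odds ratio 0.69 ± 0.25 SE, exact conditional test over GC classes, adjusted p = 0.0334). GAGAG, the GAGA element, was near 23.0% and 22.9%, a difference that appears only within GC classes (log2 odds ratio 0.45 ± 0.15 SE, exact conditional test, adjusted p = 0.0262). The Pho site GCCAT was near 26.9% and 41.6% (log2 odds ratio -0.43 ± 0.14 SE, exact conditional test, adjusted p = 0.0248). The A run, 8 A in a row, was near 13.7% and 11.1%, yet lower within GC classes (log2 odds ratio -0.50 ± 0.19 SE, exact conditional test, adjusted p = 0.0334) and higher without them (log2 odds ratio 0.35, exact test, adjusted p = 0.131). In tiled distal intergenic windows the shares were 3.95% for Su(Hw), 20.9% for GAGA, 35.2% for Pho and 10.1% for the A run. The reverse of GCCAT can lie inside the CTCF core, so these matches overlap.

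The CTCF core was called under each of the alternatives run, and the other 4 were not: each lost its call when either library was left out, apart from GAGA, which lost it when a start within 1000 bp or a window of 50 bp was used. The 15 motifs without a call included the BEAF-32 box CGATA (19.6% against 17.1%, log2 odds ratio 0.11 ± 0.16 SE), the Zelda site CAGGTAG (0.913% against 0.859%, log2 odds ratio 0.77 ± 0.65 SE) and the TATA box TATAAA (36.7% against 19.5%, log2 odds ratio 0.08 ± 0.14 SE once GC classes were kept). Against distal intronic peaks 1 of 20 motifs was called (5.0% of those tested). The forkhead site TGTTTAC lay near 3.50% of distal intergenic and 6.88% of distal intronic peaks (log2 odds ratio -1.04 ± 0.34 SE, exact conditional test over GC classes, adjusted p = 0.0336). That call was lost when replicate 1 was left out (4.97% against 7.07%, exact conditional test, adjusted p = 0.476) and when replicate 2 was (4.19% against 5.46%, exact conditional test, adjusted p = 0.575).

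**Figure D4:**
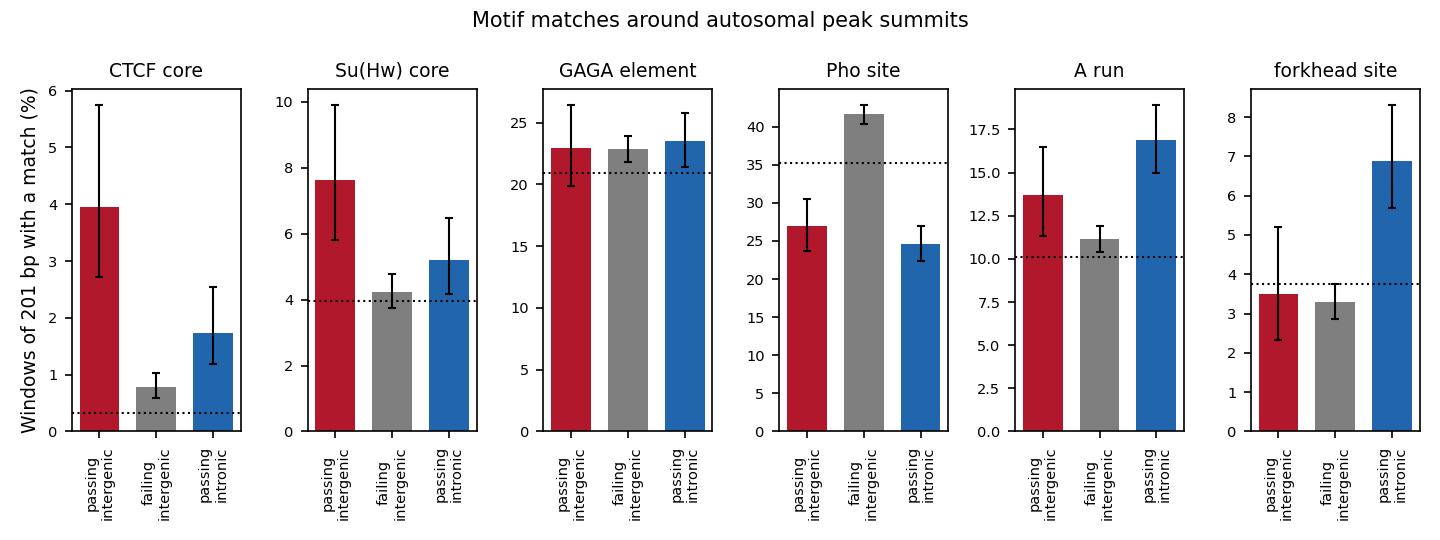
Share of 201 bp windows around autosomal summits with a motif match (y axis, %, each panel from 0) for passing distal intergenic, failing distal intergenic and passing distal intronic candidates; bars carry 95% Wilson intervals and the dotted line is the share of tiled distal intergenic windows. The CTCF core stands at 3.96%, 0.778% and 1.74%, and shares are shown without GC classes.

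A set of 8-mers chosen on other peaks gave a separate look at sequence. The 20 8-mers most enriched at passing peaks that are not autosomal distal intergenic, against failing candidates, were tested within 50 bp of the summits of the 657. Of these, 4 were called (20% of those tested), all higher. AGATGGCG was near 9 peaks and 30 failing candidates (1.37% against 0.486%, exact conditional test over GC classes, adjusted p = 0.00202), GATGGCGC near 8 and 22 (adjusted p = 0.00202 in the same exact test) and GCGCCACC near 8 and 32 (adjusted p = 0.00202 in the same exact test). These 3 overlap the CTCF core in their letters, and 8 of the 9, 6 of the 8 and 8 of the 8 peaks also held the core within 100 bp. Together the 3 8-mers were near 17 peaks, of which 14 were among the 26 with a CTCF core. With starts within 1000 bp left out, GCGCCACC lost its call (log2 odds ratio 1.68, exact conditional test over GC classes, adjusted p = 0.13).

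ACAGGGTG is unlike the core and was found at 6 peaks (0.913%) and 10 failing candidates (0.162%; log2 odds ratio 2.71 ± 0.85 SE, exact conditional test over GC classes, adjusted p = 0.0138). None of the 6 held the CTCF core, and their signals ran from 106 to 375 with a median of 172. The strongest of them lay between CG13321 and Psc, a Polycomb group gene, and the next, CR43670/CG31808, is shown above. Tiled distal intergenic windows of 101 bp held it in 0.151% of cases. Among the 20, ACCCTGTA, ACACCCTG, AACAGGGT, CAGGGTGC and ATACAGGG overlap ACAGGGTG in their letters. None of these was called (exact conditional test over GC classes, adjusted p = 0.153, 0.153, 0.153, 0.843 and 0.292). With replicate 2 left out the first 3 were called, and with replicate 1 left out ACACCCTG was. Without GC classes none of the 4 called 8-mers passed Fisher's exact test (0 of 20 called, 4 of 20 at an unadjusted p under 0.05, adjusted p = 0.0534 for ACAGGGTG).

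The peaks had a shorter median distance to starts than failing candidates and lay less often in wide gaps between genes. The median distance from the summit to a start of any transcript was 2994 bp, with quartiles of 1296 and 5960 bp. For failing candidates the median was 3886 bp, a difference given without a test. The gap between the 2 flanking genes had a median of 10506 bp against 13650 bp, likewise without a test. A gap of 20000 bp or more held 24.4% of peaks and 34.0% of failing candidates (log2 odds ratio -0.67 ± 0.14 SE, Fisher's exact test, adjusted p = 7.15e-07). Comparisons of gaps and nearest gene boundaries, here and in the next paragraph, used 6133 failing candidates, as 40 lacked a flanking gene. Gaps between divergent genes, whose starts face each other, held 28.8% and 23.1% (log2 odds ratio 0.43 ± 0.13 SE, Fisher's exact test, adjusted p = 0.00426). Without replicate 1 the divergent share fell short of the threshold (29.8% against 24.5%, Fisher's exact test, adjusted p = 0.0609), and with 1000 bp in place of 500 bp it did too (25.4% against 21.5%, Fisher's exact test, adjusted p = 0.115).

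Tandem gaps held 49.3% of peaks and 51.6% of failing candidates, and convergent gaps 21.9% and 25.3%, neither difference passing (Fisher's exact test, adjusted p = 0.286 and 0.0868). The nearest gene boundary was a 3′ end at 48.9% of peaks and 53.2% of failing candidates (log2 odds ratio -0.25 ± 0.12 SE, Fisher's exact test, adjusted p = 0.0547). With replicate 1's own list, replicate 2 being left out, that share passed (47.6% against 52.9%, Fisher's exact test, adjusted p = 0.0112). The nearest protein-coding start was downstream of the summit, so that the peak lay on its upstream side, at 65.8% of peaks and 60.1% of failing candidates, a difference given here without a test. A tRNA gene was the nearest boundary for 19 peaks (2.89%) and 67 failing candidates (1.09%), likewise without a test.

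Transposable elements held few of the peaks. A summit lay inside an annotated element in 4 of 657 cases (0.609%) and in 124 of 6173 failing ones (2.01%; log2 odds ratio -1.58 ± 0.69 SE, Fisher's exact test, adjusted p = 0.0144). The strongest was 756 bp from the start of ed, a cell adhesion gene (2L, 4030548 to 4030726, signal 335), with 183 in replicate 1 and 153 in replicate 2. The others named by signal lay near del (108) and CG31809 (77.0), and all 4 were on 2L. Counts this small leave the size of the difference poorly known.

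The call on the arms depended on the list. The arms 2L, 2R, 3L, 3R and chromosome 4 held 177, 118, 204, 155 and 3 peaks, and none was called against failing candidates after adjustment over 5 arms (0 of 5; Fisher's exact test, lowest adjusted p = 0.107 on 3R). At an unadjusted p under 0.05, 2L (26.9% against 23.5%) and 3R (23.6% against 27.8%) were the arms that passed. On 3R the share was called lower in the conservative list, with an IDR of 0.001 or less, and in each replicate's own list. In replicate 1's list, with replicate 2 left out, 4 of 5 arms were called, 2L and 3L higher and 2R and 3R lower. Per Mb of eligible sequence there were 26.4 peaks on 2L, 15.8 on 2R, 22.8 on 3L and 20.2 on 3R, over 31.0 Mb in all. Chromosome 4, with 0.25 Mb, had 3 peaks.

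The peaks were spread over 444 gaps, of which 317 held 1 peak and 83 held 2. The gap between NijA, a ninjurin gene, and CG43245 (3L, 10696878 to 10771924) held 10, with a median signal of 149 and a range of 8.88 to 438. It also held 20 failing candidates and the peak farthest from any start, 36646 bp away (10735237 to 10735325, signal 200). In that peak replicate 1 had 121 and replicate 2 had 76.5. Another of its peaks (10738679 to 10738781, signal 163) was the third farthest, at 33205 bp. The gap next to CG13898 (3L, 770463 to 803426) held 9 peaks, with a median of 143 and a maximum of 825.

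The gap upstream of chinmo held fewer but stronger peaks. It lies on 2L (1626022 to 1646931) between the long non-coding RNA genes CR44603 and CR45695, and the nearest protein-coding start for its strongest 3 is that of chinmo, a BTB zinc finger gene of neuronal temporal identity. Its 6 peaks had a median signal of 441, from 126 to 876, and only 5 failing candidates lay in it. The strongest 3 had signals of 876, 830 and 696, with 542, 527 and 399 in replicate 1 and 333, 310 and 305 in replicate 2. All 3 were far above the median of 127. The gap between CR44723 and CR45250 on 3L (11325001 to 11342081) also held 6, with a median of 93.3. That upstream of CG7560 on 3L (11406095 to 11425157) held 5, with a median of 308 and a maximum of 1001.

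Lists of genes were counted by the nearest protein-coding start, beside the share of failing candidates as background. A peak is called near a gene when that gene has this start, at any distance. Segmentation genes had 15 peaks over 7 genes (2.28% of peaks, 1.73% of failing candidates) with a median signal of 119, against 127 over all members. Among them were slp2 (632), ptc, the Hedgehog receptor (2R, 8644282 to 8644474, signal 367), and wg, a Wnt ligand (2L, 7295942 to 7296271, signal 159). Other developmental transcription factors had 39 peaks over 23 of 90 genes (5.94% and 4.73%). The strongest lay near Doc2, a T-box gene of the heart and amnioserosa (475), mid, another T-box gene (378), and vvl, a POU domain gene (343). The last stood 33872 bp from the start of vvl. By distance to a start of any transcript it was the next farthest after the farthest peak in the NijA gap.

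Genes of signalling had 11 peaks (1.67% and 1.18%), among them 2 upstream of aop, an ETS repressor (356 and 203), and 1 upstream of the ligand gene Wnt4 (180). Axon guidance and cell adhesion had 10 (1.52% and 1.28%), with ds, an atypical cadherin gene (312), 18w, a Toll family gene (284), and unc-5, a netrin receptor gene (253). Insulator and chromatin proteins had 3 peaks, all near Su(z)2 (116, 84.8 and 81.5), or 0.457% of peaks against 0.227% of failing candidates. The Hox list had 1, 26899 bp from the start of Dfd (188), or 0.152% against 0.081%. The dpr and DIP genes of synaptic partner choice had 3 (0.457% and 0.713%), with dpr20 (380) ahead of DIP-delta (118) and DIP-gamma (100.2).

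Genes of chemosensory receptors and odorant-binding proteins had 16 peaks (2.44% and 2.61%), led by Gr89a (360), Gr93a (239) and Ir94d (225). Cuticle proteins had 8 (1.22% and 0.826%), led by Cpr76Ba (424), Cpr65Eb (162) and Cpr51A (113). Muscle genes had 2 (0.304% and 0.324%), near Zasp52, a Z-disc protein gene (179), and Act87E, an actin gene (174). Cytochrome P450 genes had 2 (0.304% and 0.567%), 59567 bp from the start of Cyp12e1 (180) and 7279 bp from that of Cyp9b2 (100.4). The 92 cytoplasmic ribosomal protein genes had 1, near RpS23 (108), or 0.152% of peaks against 0.68% of failing candidates. Germline and maternal genes, mitochondrial ribosomal proteins and serine proteases had 0 peaks, with 12, 14 and 12 failing candidates near them, and heat shock genes had none of either. These counts carry no test.

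The weakest members lay beside stronger ones. Of the 48 peaks with a signal under 60, 47 had a stronger passing summit within 300 bp, against 3 of the 609 with 60 or more. The 50 peaks beside a stronger summit lay 199 to 290 bp from their nearest neighbour. The stronger summits beside them had a median signal of 97.0, and 47 of the 50 were themselves distal intergenic. GC content averaged 46.2% ± 9.87 (SD, n = 48) in the weak peaks and 33.2% ± 8.57 (SD, n = 609) in the others. A candidate summit within 100 bp was present for 21 of the 48 in replicate 1 and for 12 in replicate 2, against 599 and 589 of the 609.

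**Figure D5:**
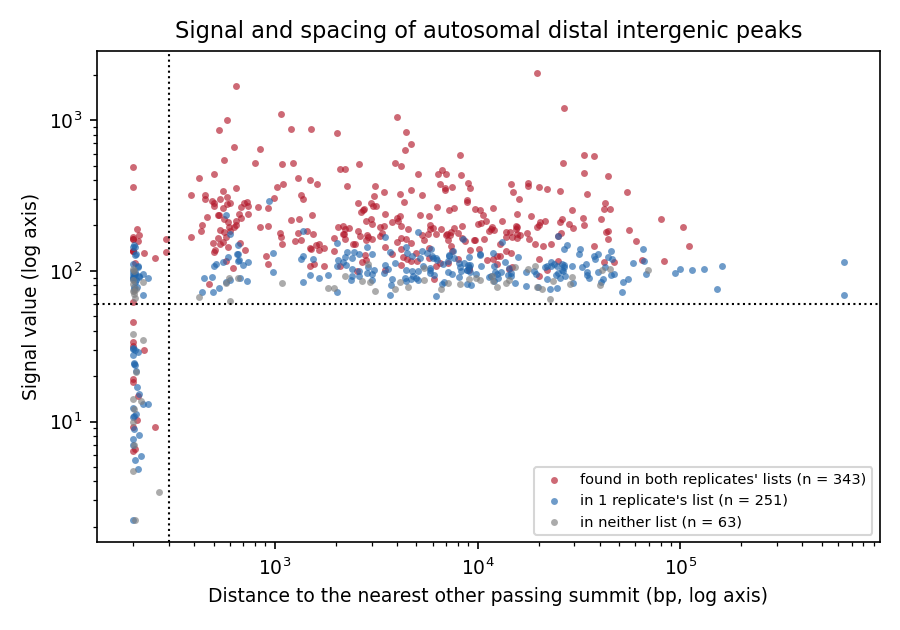
Signal of each of the 657 autosomal distal intergenic peaks (y axis, log) by distance to the nearest other passing summit of any class (x axis, bp, log), coloured by how many replicates' lists overlapped it; dotted lines mark 300 bp and a signal of 60. The peaks under 60 all lie left of 300 bp, and those above spread over the whole range.

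Such a peak may be counted as found in a library through its neighbour, since overlap of 1 bp with that library's peak is enough, and whether it is a site of its own was not tested. With summits beside a stronger one left out of every passing class, the remaining 607 members gave the same calls for each share compared above, and for the CTCF core. This also took out 109 autosomal distal intronic and 130 autosomal promoter peaks, while failing candidates were not filtered. The Su(Hw) core and the A run were then not called (exact conditional test over GC classes, adjusted p = 0.196 and 0.0524). Across all 657, a further passing summit lay within 1000 bp of 195 (29.7%), and the median distance to one was 4017 bp.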

How the data were processed

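The 2 libraries are ChIP-seq of CG10366-eGFP from whole embryos, and per the labels the assembly is dm6. The sources used here do not name an aligner or peak caller. The deposited lists give each peak's summit and signal, the authors' own value, used to rank or describe peaks within a list. Where values of both libraries stand side by side, each comes from its own list, and no common scale is known. The authors' ranked lists also hold the −log10 of the global IDR. The thresholded list equals ranked peaks at 2 or more, an IDR of 0.01 or less, except 148 left out. Those 148 were counted neither as passing nor as failing. Read totals were not used, so depth is unknown.

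Genes and starts came from Ensembl release 115, without transposable elements, sequence from RefSeq. Python 3.11.15, pandas 2.3.3 and scipy 1.17.1 were used. Shares were compared by two-sided Fisher's exact test with 0.5 added to each cell for the log2 odds ratio, and adjusted by Benjamini-Hochberg over 11 shares, 3 gap types, 5 arms, 20 motifs or 20 8-mers, threshold 0.05. Motifs and 8-mers were compared by an exact conditional test over GC classes, with the Mantel-Haenszel odds ratio. Of the tests, only the exact conditional one was checked on simulated data, with sites drawn independently. GC was taken in 101 bp and motifs in 201 bp. The GC classes of the exact conditional test used the window searched, 201 bp for motifs and 101 bp for 8-mers. The motif tests were thus not stratified by the GC of the 101 bp around the summit. Members, lists and tests were chosen with earlier results of these data known. Named peaks were the 25 strongest, the 5 fullest gaps, up to 3 per gene list, the 3 farthest from a start and the 3 strongest in transposable elements; CG13321/Psc and the shares without a test were added after values were seen. A peak's value in 1 library is that library's candidate with a summit within 100 bp.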

Additional observations from a re-analysis of the deposited data

How the results depend on the processing

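Results that were called kept their direction and call for the passing shares, strength against promoters, low GC against failing candidates, wide gaps and transposable elements under each alternative run on them, and the CTCF core did too. Against introns, uncalled differences changed sign: strength to 0.05 (conservative list) and 0.02 (without replicate 1), and the share found in both replicates to 0.17 (conservative list) and 0.11 (IDR of 0.001 or less), all log2 odds ratios. The share in both replicates against promoters was -0.37 at an IDR of 0.001 or less. The A run changed sign without GC classes (0.35).

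Motifs called against failing candidates, 5 of 20, numbered 3 in the conservative list, 2 at an IDR of 0.001 or less, 2 with starts within 1000 bp, 3 within 50 bp 3 without summits beside a stronger one (an alternative chosen after seeing the data) and 6 without GC classes, where Motif 6, the TATA box and the AT step run were called and the GAGA element and A run were not. Motifs called against introns, 1 of 20, numbered 0 within 50 bp, at an IDR of 0.001 or less and in the conservative list (2 at an unadjusted p under 0.05 in the exact conditional test each time), and 2 without GC classes. Gap types called, 1 of 3, numbered 0 with starts within 1000 bp (1 at an unadjusted p under 0.05, Fisher's exact test). Arms called, 0 of 5, numbered 1 at an IDR of 0.001 or less and 1 in the conservative list. The 8-mers called, 4 of 20, numbered 0 without GC classes and 4 with starts within 1000 bp, where CAGCCCTG was called and GCGCCACC was not.

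With replicate 1 or replicate 2 left out, motifs called against failing candidates numbered 2 and 2, those against introns 0 and 0 (2 at an unadjusted p under 0.05 each), gap types 0 and 2, arms 1 and 4, and 8-mers 5 and 7. The log2 odds ratio of the 3′ flank was -0.19 and -0.31, and that of strength against introns 0.02 and -0.13. The cause of these changes was not tested. The main list gave 657 peaks, and the alternatives gave 382 (without replicate 1) to 645 (without replicate 2). Depth is unknown. No paired analysis was possible because there is 1 group.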
